A study of Arabidopsis thaliana with 24 samples.

Results

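The response of a directly lit leaf was measured in Arabidopsis thaliana plants that carried a drop with diphenyleneiodonium (DPI), an inhibitor of flavin-containing oxidases such as the NADPH oxidases that release reactive oxygen species at the plasma membrane. RNA was sequenced from local leaves of DPI-treated plants after high light (3 libraries) and from local leaves of DPI-treated plants without light stress (the control, 3 libraries), which are 6 of the 24 libraries of the series, chosen by their labels. All plants were of the wild type accession Col-0, were 4 to 5 weeks old, and had grown at 23°C and 50 µmol m−2 s−1 in short days (8 h light, 16 h dark). High light was 2000 µmol m−2 s−1 for 8 min on the local leaf alone. The drop of 0.3% agarose held 50 mM DPI and was applied for 15 min, after which the light of the lit plants began. It was placed midway between the local and the systemic leaf, so that DPI was not applied to the lit leaf itself. The paper sampled leaves at the start and after 8 min of light stress, so that lit leaves were taken later after the drop than controls. Light and this added time cannot be told apart. The groups used for comparison were DPI systemic leaves (a leaf that was never lit itself) and local leaves of plants with a water drop, each after high light and without it, with 3 libraries a group. Leaves of many plants were pooled for each library, and p-values therefore measure the spread between pools.

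Strong light heats a leaf and loads its photosynthetic electron transport, and it releases reactive oxygen species from chloroplasts and from the cell surface. Heat shock factors (HSFs) are transcription factors that bind repeated heat shock elements and switch on chaperones, which hold and refold damaged proteins. Jasmonic acid and salicylic acid are defence hormones with partly opposed target genes, the pathogenesis-related (PR) genes being the classical targets of salicylic acid.

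Of 32833 annotated genes, 18314 were tested, those that reached a normalized count of 10 in 3 or more libraries. A normalized count is the number of reads of a gene over its library's size factor. After high light 6190 of the 18314 transcripts (33.8%) had changed in DPI local leaves by limma at an adjusted p of 0.05, 3276 of them higher (17.9%) and 2914 lower (15.9%). Of the 6190, 3617 changed by less than 0.5 on the log2 scale, while 578 rose and 560 fell by at least 2-fold, and 186 rose and 156 fell by at least 4-fold. Under quantile normalization the split was 2532 higher and 4084 lower. The 3 high light values lay above all 3 control values for 4181 transcripts (22.8%) and below them for 3692 (20.2%). The 6 libraries held 13492454 to 18853604 reads, so that 3 reads stood for a normalized count of 3.03 to 4.27, and each library was most alike to another library of its own group.

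Defining markers of leaf mesophyll were the most abundant marker list. Their summed level was 968420 to 1011000 in the high light libraries and 938680 to 982670 in the control libraries, and 3 of 6 markers differed past the threshold by 0.12 to 0.14 on the log2 scale. All 5 epidermis markers fell (from −0.11 for ATML1 to −0.49 for KCS6), with a summed level of 20397 to 20592 after high light and 25012 to 25775 in the control. Of 6 guard cell markers 4 fell, with sums of 771 to 816 after high light and 1021 to 1091 in the control. Of 3 phloem companion cell markers 2 rose, with sums of 5378 to 5584 after high light and 4355 to 4609 in the control. Of 5 root markers RHD6 and SHV2 were at 0, EIR1 was not tested, PHO1 changed by −0.01 (adjusted p 0.951) and SHR fell by 0.42 (adjusted p 0.0189), with sums of the list of 195 to 227 after high light and 235 to 242 in the control. Changes in the share of a cell type, in RNA per cell and in the levels of the marker transcripts themselves cannot be told apart in bulk leaves. The part of these shifts in the results was not tested.

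Among the largest rises were those of the small heat shock proteins, chaperones that bind unfolding proteins. Of 11 cytosolic members 10 rose and none fell, with a median log2 change of 6.69, against 0.004 over all tested transcripts. The transcript AT1G59860, a class I small heat shock protein, had 12193, 12586 and 12383 normalized counts after high light, against 32.9, 34.5 and 43.9 in the control. Its groups lay far apart and its 3 lit pools were nearly level, a log2 change of 8.36 (SE 0.19, adjusted p 2.22e-31). HSP17.6A, of class II, had 3615, 3428 and 3519 after high light and 12.5, 10.1 and 12.2 in the control, a change of 8.13 (SE 0.33, adjusted p 8.02e-23). For HSP17.4 the counts were 289, 396 and 324 after high light and 2.27, 6.09 and 6.12 in the control, a change of 5.93 (SE 0.54, adjusted p 6.09e-12). The one cytosolic member that did not pass was AT4G21870, at 0.23 (adjusted p 0.323). Close members of this family share sequence, so that their single levels are uncertain.

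**Figure D1:**
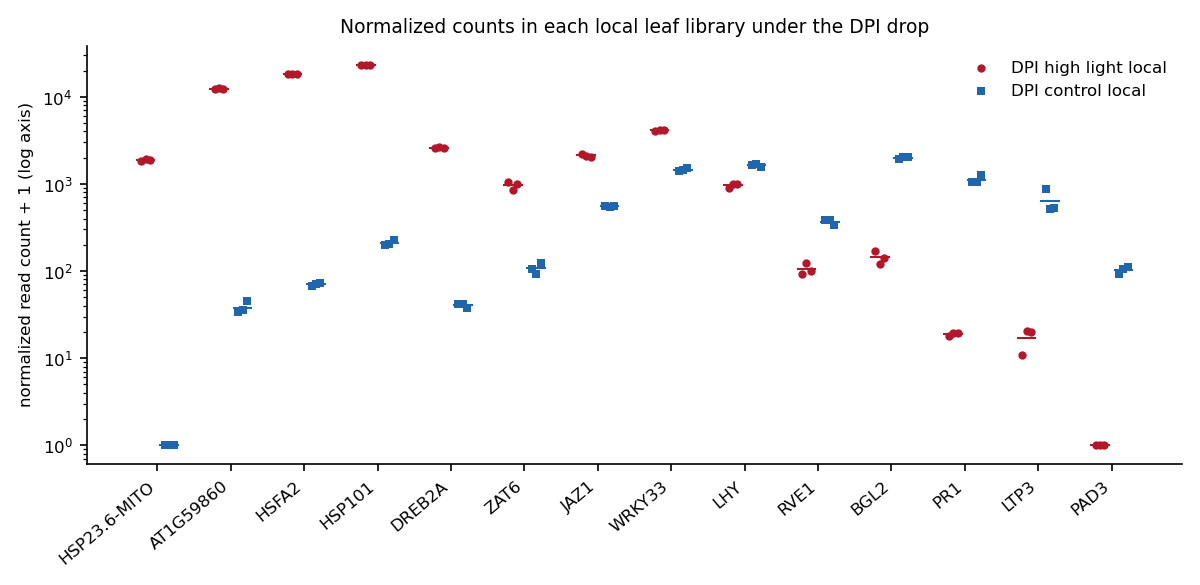
Normalized count + 1 on a log axis for 14 transcripts in DPI local leaves, high light left of control; points are the 3 libraries of each group and lines their means. HSFA2 has 18179 to 18466 after high light and 65.7 to 71.4 in the control, PAD3 is at 0 in all 3 high light libraries, and the groups of each of the 14 transcripts do not overlap. Over all tested transcripts 22.8% lie above the control without overlap and 20.2% below it.

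Small heat shock proteins of organelles behaved likewise, and all 5 rose. HSP23.6-MITO, of mitochondria, had 1835, 1919.7 and 1880.0 normalized counts after high light and no read in the 3 control libraries. With 3 reads per library as the floor, this is at least 593-fold higher. The chloroplast HSP21 had 121, 99.1 and 71.7 after high light and no read in the control, at least 30.7-fold higher. ATHSP22.0, of the endoplasmic reticulum, had 196, 175 and 187 after high light and no read in the control, at least 58.8-fold higher. None of the 3 was detectable in control local leaves at this depth.

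The ATP-dependent chaperones started from higher control levels. All 10 tested HSP70 members rose (median 1.34), as did 9 of 10 members of the HSP90 and ClpB list (median 1.61). HSP101, the disaggregase needed for acquired heat tolerance, had 23325, 23422 and 23371 after high light and 197, 202 and 227 in the control. Its replicates were within a narrow range in both groups, and the change was 6.80 (SE 0.06, adjusted p 2.07e-45). HSP70 (AT3G12580, cytosolic) had 42441, 42508 and 41973 after high light and 1326, 1530.4 and 1465 in the control, a change of 4.88 (SE 0.04, adjusted p 2.07e-45). HSP90.1, the heat-inducible cytosolic HSP90, had 20419.7, 20623 and 19573 after high light and 477, 574 and 569 in the control, a change of 5.23 (SE 0.08, adjusted p 1.78e-36). The exception was SHD, the HSP90 of the endoplasmic reticulum, which fell, with 3975, 3959 and 4033 after high light and 6799, 6794 and 6691 in the control (log2 change −0.76, SE 0.03, adjusted p 3.55e-22).

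Co-chaperones hand substrates to HSP70 and HSP90, and 8 of 9 rose (median 1.96). Hop3 had 13884, 14616 and 14353 normalized counts after high light and 159, 138 and 157 in the control, a change of 6.55 (SE 0.06, adjusted p 2.07e-45). BAG6, a calmodulin-binding co-chaperone, had 17846, 18427 and 18042 after high light and 113, 138 and 129 in the control, a change of 7.15 (SE 0.11, adjusted p 1.3e-36). AT1G71000, a DnaJ-domain protein, had 1853, 1736 and 1710.3 after high light and 0, 2.03 and 0 in the control. Only 1 control library held any read of it, and the ratio of the groups was 2503 (95% interval 692 to 20680.0), an interval of counting error alone.

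Among 20 tested HSF and MBF1 genes 11 rose and 1 fell (median 0.37). HSFA2, the heat-inducible factor that prolongs the heat response, had 18352, 18466 and 18179 after high light and 65.7, 70.0 and 71.4 in the control. The groups were wide apart and the pools within each were close, at 8.03 (SE 0.10, adjusted p 8.43e-40). HSFA7A had 1719, 1736 and 1645 after high light and 15.9, 20.3 and 13.3 in the control (log2 change 6.62, SE 0.22, adjusted p 6.11e-26). AT-HSFA7B was without a read in the control and had 81.1, 66.8 and 65.7 after high light, at least 22.5-fold higher. MBF1C, a coactivator linked with heat tolerance, had 7199, 6279 and 6455 after high light and 185, 152 and 163 in the control (log2 change 5.31, SE 0.08, adjusted p 4.52e-37). HSFA6A moved the other way, at −1.72 (adjusted p 0.00306).

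Promoter sequence was set beside these rises for 6 genes, shown because each had a heat shock element and their transcripts were among those that rose most. The stretches are from RefSeq, build TAIR10.1, each within 250 bases before the annotated start: HSP17.4 at chr3:16984868-16985017 on the minus strand, AT1G53540 at chr1:19980149-19980298 on the plus strand, AT1G71000 at chr1:26770179-26770328 on the minus strand, HSFA2 at chr2:11135474-11135623 on the plus strand, HSFA7A at chr3:19264929-19265078 on the plus strand and DREB2A at chr5:1602021-1602170 on the plus strand. They are written 5′ to 3′ on the gene's strand, with the heat shock element in capitals, which is GAA, TTC and GAA in this order with any 2 bases between neighbours, on either strand.
HSP17.4: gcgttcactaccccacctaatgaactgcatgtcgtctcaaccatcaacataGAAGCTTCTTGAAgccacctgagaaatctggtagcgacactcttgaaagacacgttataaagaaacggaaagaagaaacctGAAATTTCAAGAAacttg
AT1G53540: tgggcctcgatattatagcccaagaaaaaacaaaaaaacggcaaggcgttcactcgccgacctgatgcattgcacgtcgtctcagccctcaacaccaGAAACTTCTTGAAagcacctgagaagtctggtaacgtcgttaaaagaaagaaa
AT1G71000: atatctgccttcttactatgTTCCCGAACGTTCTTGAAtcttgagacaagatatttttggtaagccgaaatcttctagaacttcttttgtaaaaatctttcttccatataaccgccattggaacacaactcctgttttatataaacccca
HSFA2: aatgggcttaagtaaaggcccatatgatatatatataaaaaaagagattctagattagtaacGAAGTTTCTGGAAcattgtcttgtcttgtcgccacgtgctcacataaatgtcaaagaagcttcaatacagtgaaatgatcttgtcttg
HSFA7A: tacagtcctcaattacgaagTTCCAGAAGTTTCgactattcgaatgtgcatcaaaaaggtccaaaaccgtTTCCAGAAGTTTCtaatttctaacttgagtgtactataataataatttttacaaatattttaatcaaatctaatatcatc
DREB2A: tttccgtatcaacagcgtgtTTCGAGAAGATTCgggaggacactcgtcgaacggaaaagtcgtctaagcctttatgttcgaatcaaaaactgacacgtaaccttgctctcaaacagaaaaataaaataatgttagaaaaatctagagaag
HSP17.4 and HSFA7A each carried 2 separate matches, and the 2 of AT1G71000 overlap, so that they form 1 longer run of capitals.

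Over all genes with a promoter in the table, 134 of 32546 windows of 250 bases held this element (0.412%), and 81 of 18205 among tested genes (0.445%). Among transcripts that rose by at least 4 on the log2 scale, 7 of 64 held it (10.9%), and 4 of 122 of those that rose by 2 to 4 (3.28%). Rises of 1 to 2 had a share of 1.29% (5 of 388), and rises below 1 had 0.557% (15 of 2691). Transcripts not past the threshold had 0.366% (44 of 12027). Among the falls the share was 0.17% below 1 (4 of 2353), 0.495% from 1 to 2 (2 of 404), and 0 of 156 where the fall was 2 or more. The bins were cut from the light response itself and the shares are a description, with no test. Most heat shock genes lacked these letters in the window: 2 of 11 cytosolic small heat shock protein promoters held them, and 0 of 5 organellar ones, 0 of 11 for HSP70, 0 of 10 for HSP90 and ClpB and 0 of 9 for co-chaperones. Beyond the genes shown, list members with the element were AT-HSFA7B, ERF-1, ERF2, NAC2 and PRR7.

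**Figure D2:**
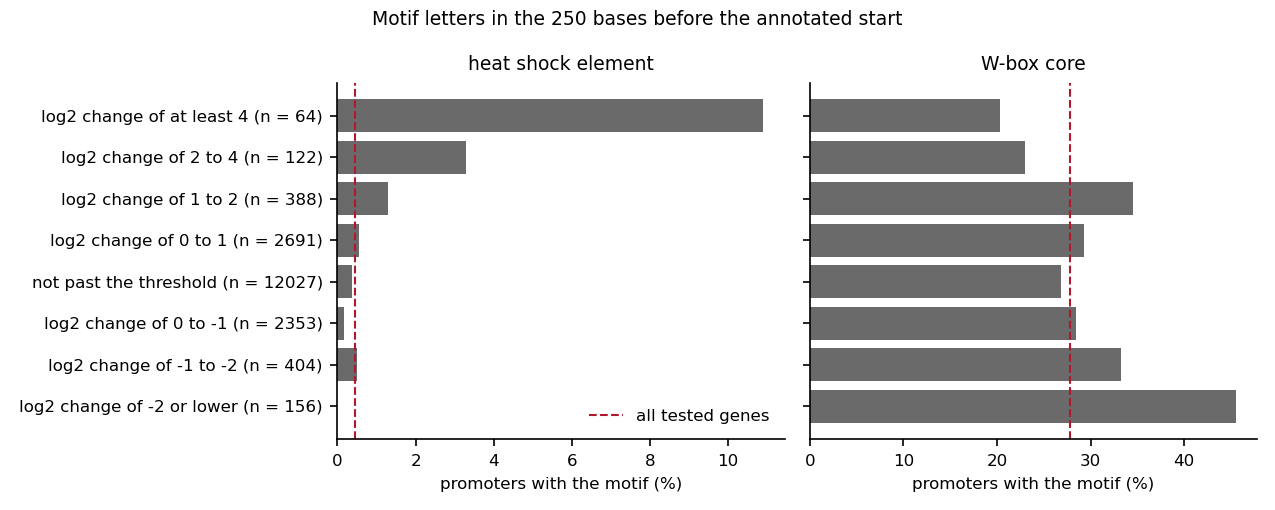
Share of promoters (percent, 250 bases before the annotated start) with the heat shock element or the W-box, by bin of log2 change after high light in DPI local leaves; the dashed line is the share over all tested genes. The heat shock element reaches 10.9% in the top bin of rises and the W-box 45.5% in the bin of largest falls.

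In systemic leaves of the DPI plants 2144 transcripts (11.7%) changed after high light, 1309 higher (7.15%) and 835 lower (4.56%). The local change differed from the systemic change for 2411 transcripts (13.2%, leaf by light interaction), 1305 of them more positive (7.13%) and 1106 more negative in the local leaf (6.04%). Under quantile normalization this split was 991 more positive and 1508 more negative. Of the 11 cytosolic small heat shock proteins 10 had a positive leaf interaction, as did all 5 organellar ones, 9 of 10 HSP70 members, 9 of 10 HSP90 and ClpB members and 8 of 9 co-chaperones. No small heat shock protein rose in systemic leaves, where 6 cytosolic members and 1 organellar member fell. HSP17.6A, for example, averaged 0.729 ± 1.26 (SD, n = 3) in lit plants and 7.63 ± 3.41 (n = 3) in control plants in the systemic leaf. The leaf interaction was 7.95 (SE 0.15, adjusted p 4.61e-34) for HSFA2 and 7.29 (SE 0.09, adjusted p 6.12e-41) for HSP101.

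With a water drop, 5921 transcripts (32.3%) changed in the lit leaf, 3278 higher (17.9%) and 2643 lower (14.4%). The difference between the DPI and the water response (drop by light interaction) passed for 3642 transcripts (19.9%), 1600 more positive with DPI (8.74%) and 2042 more negative (11.1%). By at least 2-fold it was more positive for 94 and more negative for 621. Both the interaction and the DPI response use the 6 DPI local libraries. Heat shock transcripts mostly rose under both drops: 10 cytosolic and 5 organellar small heat shock proteins, 9 HSP70 and 10 HSP90 and ClpB members rose with water too. Drop interactions, positive then negative, numbered 0 and 4 for cytosolic small heat shock proteins and 0 and 0 for organellar ones. They numbered 4 and 3 for HSP70, 2 and 5 for HSP90 and ClpB, 2 and 1 for co-chaperones and 2 and 4 for HSF and MBF1 genes. HSFA2 was among those that rose more with DPI, with an interaction of 1.17 (adjusted p 4.57e-08), and so was HSP101, with 0.94 (adjusted p 2.39e-11). Their lit levels were nevertheless lower with DPI than with water, by −0.37 (adjusted p 0.00318) for HSFA2 and −0.57 (adjusted p 2.61e-10) for HSP101, and their control levels were lower still, by −1.55 (adjusted p 8.63e-16) for HSFA2 and −1.51 (adjusted p 8.38e-23) for HSP101. AT1G53540, a class I small heat shock protein, had 3189.8, 3099 and 2988 after high light and 12.5, 16.2 and 16.3 in the DPI control, and its rise was smaller than with water, with an interaction of −3.68 (adjusted p 1.01e-05).

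The list of the unfolded protein response, by which the endoplasmic reticulum induces its own chaperones, split between the directions. Of its 14 genes 8 fell and 5 rose (median −0.37), 12 had a negative drop interaction and none a positive one, and 12 rose with water. BIP3, the inducible HSP70 of this compartment, had 25.6, 32.3 and 46.5 after high light and 201, 243 and 245 in the DPI control, a change of −2.72 (SE 0.23, adjusted p 7.47e-13). Its groups did not overlap, and the drop interaction was −4.13 (SE 0.32, adjusted p 3.58e-13). PDIL1-1, a protein disulfide isomerase, fell by 0.81, BIP2 fell by 0.71 and the lectin chaperone CNX1 fell by 0.57. ATERDJ3A, a DnaJ protein on the same list, rose, with 1107, 1163 and 1061 after high light and 88.4, 75.1 and 87.8 in the DPI control (log2 change 3.72, SE 0.14, adjusted p 4.41e-24). All 14 were higher in DPI than in water control leaves, a comparison in which 7420 transcripts (40.5%) differed, 3944 of them higher with DPI (21.5%) and 3476 lower (19.0%).

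**Figure D3:**
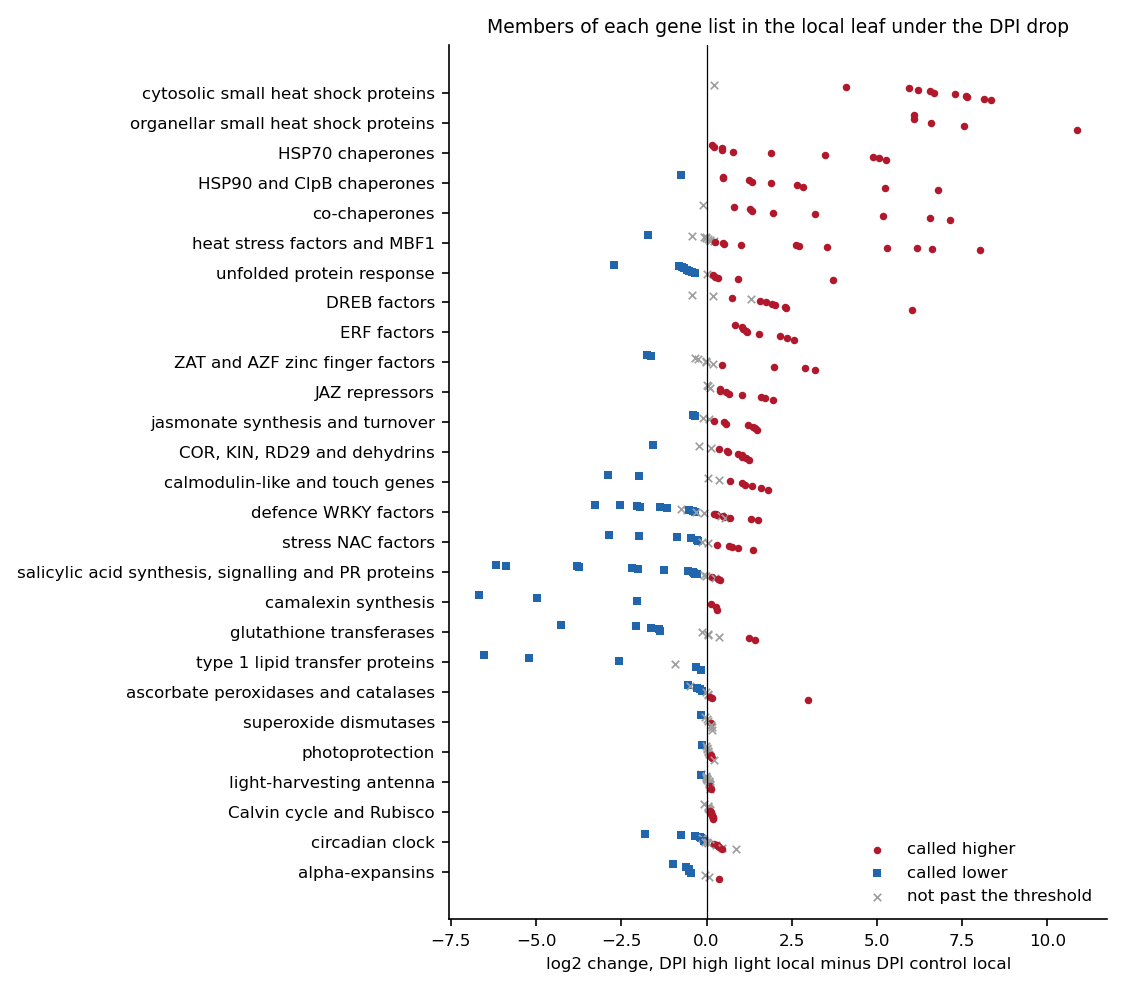
Log2 change of each tested list member after high light in DPI local leaves (1 point per transcript; the axis is log2 of high light over control), with members past the limma threshold marked as higher or lower. Cytosolic small heat shock proteins have a median of 6.69, while the salicylic acid and PR list and the camalexin list have medians of −0.39 and −0.96.

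Transcription factors of the DREB and ERF families, which answer cold, drought, heat and ethylene, rose without a fall. Of 11 tested DREB genes 8 rose (median 1.74), and all 9 tested ERF genes rose (median 1.20). DREB2A, a regulator of heat and drought genes, had 2612, 2625 and 2596 after high light and 40.8, 40.6 and 36.7 in the DPI control. The groups lay wide apart, with a change of 6.02 (SE 0.17, adjusted p 1.48e-28), a leaf interaction of 5.28 (adjusted p 4.22e-21) and a drop interaction of −1.75 (adjusted p 1.7e-07). ORA47, a regulator of jasmonate synthesis, had 517, 457 and 446 after high light and 111, 79.1 and 99 in the control (log2 change 2.29, SE 0.11, adjusted p 3.93e-20). Among the ERF genes ERF13 rose by 2.56, RRTF1 by 2.36 and ERF104 by 2.17. All 9 ERF genes also rose in DPI systemic leaves and with water, and all 9 had a negative drop interaction, a smaller rise with DPI. In the controls all 9 were higher with DPI than with water (median 1.02), as were 8 of the 11 DREB genes (median 1.46).

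A few DREB genes differed in sign between the drops. DDF1, a dwarfing factor of the DREB family that acts on gibberellin, had 656, 796 and 778 after high light, against 145, 172 and 251 in the DPI control, a change of 2.00 (SE 0.26, adjusted p 5.52e-08). In water local leaves it averaged 8.06 ± 4.26 after high light and 25.2 ± 13.4 in the control (SD, n = 3 each), and in DPI systemic leaves 421 ± 43.3 after high light and 164 ± 18.6 in the control. Its drop interaction was 3.56 (SE 0.37, adjusted p 7.3e-10). Its relative ddf2 had 228, 226 and 243 after high light and 37.4, 82.2 and 71.4 in the DPI control (log2 change 1.93, SE 0.43, adjusted p 0.000374), with a drop interaction of 3.91. AT5G52020, an ERF-family factor, had 198, 169 and 189 after high light and 30.6, 31.4 and 39.8 in the DPI control (log2 change 2.42, SE 0.44, adjusted p 2.69e-05), with a drop interaction of 4.15. All 3 genes fell in the water-drop leaf, at −1.56 (adjusted p 7.32e-06) for DDF1, −1.98 (adjusted p 0.000265) for ddf2 and −1.73 (adjusted p 0.00203) for AT5G52020. For ddf2 the water libraries had only 0, 1.04 and 0 after high light and 1.01, 3.76 and 12.2 in the control. These groups overlap near the floor of 3 reads, so that its fall with water and its interaction are uncertain.

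Zinc finger factors of the ZAT group are induced by reactive oxygen species. Of 11 members 4 rose and 2 fell (median −0.02, against 0.004 over all tested transcripts). ZAT6 had 1045, 858 and 986 after high light and 105, 91.3 and 122 in the DPI control (log2 change 3.17, SE 0.15, adjusted p 7e-21). RHL41 (ZAT12) had 542, 463 and 483 after high light and 58.9, 57.8 and 81.7 in the control (log2 change 2.90, SE 0.15, adjusted p 4.57e-19). STZ (ZAT10) had 2309, 2178 and 2423 after high light and 542, 559.8 and 634 in the control (log2 change 1.99, SE 0.07, adjusted p 1.93e-24). None of the 3 overlapped between the groups, which their choice by size of change made likely. Over all tested transcripts 22.8% lay above the control without overlap. Of the 11 members 8 had a negative drop interaction and 9 were higher in DPI than in water control leaves.

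WRKY factors, which bind the W-box in defence genes, split between the directions. Of 23 tested 8 rose and 9 fell (median −0.32), while with water 14 rose and none fell. WRKY33, a regulator of camalexin synthesis, had 4081, 4175 and 4199 after high light and 1400.3, 1436 and 1519 in the DPI control, a change of 1.52 (SE 0.05, adjusted p 1.13e-25). WRKY40, a repressor of defence, rose by 1.29. WRKY38 fell to 7.12, 11.8 and 18.2 after high light, against 126, 131 and 110.2 in the control (log2 change −3.29, SE 0.25, adjusted p 4.59e-14), with a drop interaction of −5.41 (adjusted p 2.01e-15). In all 14 WRKY genes had a negative drop interaction and 1 a positive one, and 20 were higher in DPI than in water control leaves. Of 13 NAC factors 5 rose and 6 fell, and of 8 MYB factors 5 rose and 3 fell. MYB77, an auxin-linked factor, rose by 2.12, and MYB30, a regulator of hypersensitive cell death, fell by 0.38. Of 8 protein kinases of the MAPK list 4 rose and none fell, with 1.24 for MPK3.

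Jasmonate-responsive transcripts rose in the lit leaf and in the systemic leaf. Of 11 tested JAZ genes, the repressors that jasmonate removes and whose transcription it induces, 8 rose and none fell (median 0.56). JAZ1 had 2216, 2095 and 2049.7 after high light and 557, 539 and 551 in the DPI control, a change of 1.95 (SE 0.10, adjusted p 1.04e-19). The water local leaf averaged 1999 ± 145 after high light and 187 ± 46.8 in the control (SD, n = 3 each), and the DPI systemic leaf 1032 ± 17.4 after high light and 441 ± 36.9 in the control. The control level was higher with DPI, by 1.58 (adjusted p 8.69e-17), while the lit levels of the drops differed by 0.09 (adjusted p 0.509), and the drop interaction was −1.49 (SE 0.14, adjusted p 3.55e-11). In the lit leaf 7781 transcripts (42.5%) differed between the drops, 3935 of them higher with DPI (21.5%) and 3846 lower (21.0%). Of the 11 JAZ genes 9 had a negative drop interaction, 8 rose in DPI systemic leaves and 10 were higher in DPI than in water control leaves. Of 11 genes for jasmonate synthesis and turnover 7 rose and 2 fell (median 0.50). LOX4, a lipoxygenase, rose by 1.20, whereas LOX2, the abundant chloroplast lipoxygenase, fell by 0.38. CYP94B3, which inactivates the hormone conjugate, had 1401, 1447 and 1408 after high light and 442, 487 and 604 in the DPI control (log2 change 1.48, SE 0.29, adjusted p 8.45e-05), and averaged 35.4 after high light and 58.2 in the control with water.

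Of 10 tested calcium and touch genes 6 rose and 2 fell (median 0.87). With water 7 rose and 1 fell (median 1.48), and the drop interaction was negative for 6 and positive for 1. In the controls 9 of the 10 were higher with DPI than with water. TCH4, a cell wall xyloglucan enzyme induced by touch, had 22418, 21576 and 21914 after high light and 6358, 6006 and 6562 in the DPI control (log2 change 1.80, SE 0.04, adjusted p 3.7e-31). TCH3, a calmodulin-like protein, rose by 1.33, while CML41 fell by 2.90. Of 11 cold- and dehydration-regulated genes 8 rose and 1 fell (median 0.64). The dehydrin COR47 rose by 1.05, LTI78 (RD29A) by 1.03 and the dehydrin ERD10 by 1.15. LTI65 (RD29B), a target of abscisic acid, fell by 1.56. Of 12 tested genes of abscisic acid synthesis and signalling 4 rose and 2 fell (median 0.04). Over all tested transcripts 17.9% rose and 15.9% fell in the lit leaf.

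Among the largest falls were defence transcripts linked with salicylic acid. Of 18 genes on this list 12 fell and 3 rose (median −0.39), 17 had a negative drop interaction and 10 a negative leaf interaction. PR1, the classical marker of systemic acquired resistance, had 17.1, 18.3 and 18.2 normalized counts after high light and 1053, 1056 and 1254 in the DPI control. Every lit library was far below every control library, a change of −5.89 (SE 0.13, adjusted p 4.89e-32). In the water local leaf PR1 averaged 256 ± 23.8 after high light and 35.9 ± 5.54 in the control (SD, n = 3 each), and in the DPI systemic leaf 82.2 ± 7.12 after high light and 79.9 ± 6.61 in the control. Its control level in the DPI local leaf was thus the highest of these 6 group means, above the water control by a log2 difference of 4.93 (SE 0.13, adjusted p 7.66e-29). The drop interaction was −8.70 (SE 0.18, adjusted p 1.74e-31) and the leaf interaction −5.93 (SE 0.18, adjusted p 1.22e-26).

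**Figure D4:**
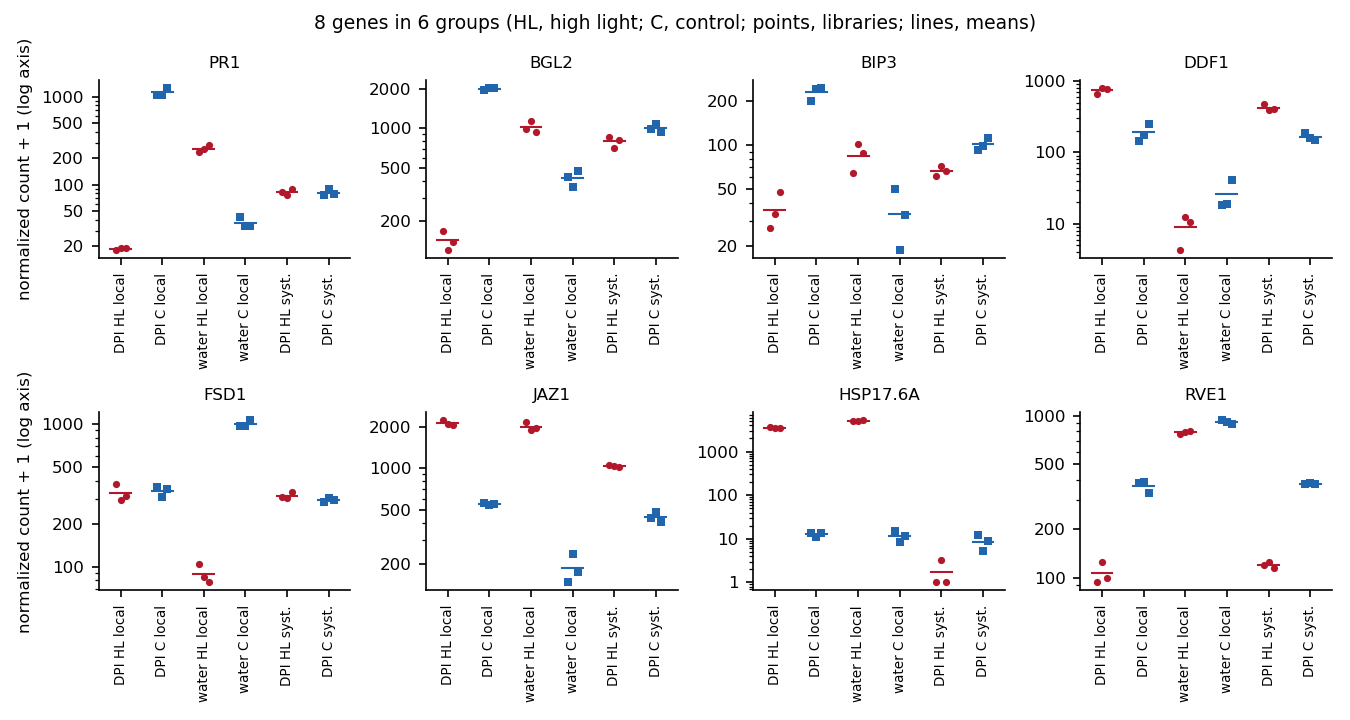
Normalized count + 1 on a log axis for 8 transcripts in 6 groups (DPI local, water local and DPI systemic leaves, high light left of control in each); points are the 3 libraries and lines their means. PR1 and BGL2 are highest in the DPI local control, DDF1 is above its control only in DPI leaves, and RVE1 falls in both DPI leaves.

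BGL2 (PR2, a glucanase) had 168, 119.5 and 138 after high light and 1948, 2013 and 2009.7 in the DPI control (log2 change −3.81, SE 0.09, adjusted p 5.93e-31). PR5, a thaumatin-like protein, had 774, 644 and 756 after high light and 1855, 1660.2 and 1596 in the control (log2 change −1.23, SE 0.06, adjusted p 2.04e-20). FMO1, which makes the mobile signal N-hydroxypipecolic acid, had no read after high light and 81.6, 54.8 and 79.6 in the control, at least 20.5-fold lower. ALD1, an earlier step of that pathway, fell by 3.74. All 18 genes were higher in DPI than in water control leaves, and 17 rose with water. In DPI systemic leaves 2 rose and 7 fell.

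Camalexin is the indole phytoalexin of Arabidopsis. Of 6 tested genes of its synthesis 3 rose and 3 fell, all 6 had a negative drop interaction, and all 6 rose with water. All 6 were also higher in DPI than in water control leaves (median 1.54). PAD3, the last step, had no read in the 3 high light libraries and 90.6, 103 and 109 normalized counts in the DPI control, at least 28.8-fold lower. CYP71A13, an earlier step, had 0, 3.23 and 3.03 after high light and 58.9, 87.2 and 102 in the control, a ratio of 0.0274 (95% interval 0.00995 to 0.0605). The ratio and its interval cover counting error only. Of 11 tested glutathione S-transferases 2 rose and 5 fell. Of these 11, 8 had a negative drop interaction and 9 were higher in DPI than in water control leaves. GSTF6 fell by 2.04 and GSTF7 fell by 2.08, whereas GSTU5 rose by 1.43 and GSTF8 by 1.26.

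Other large falls named by the size of their change included stress and cell wall transcripts. Of transcripts that fell by at least 4-fold, 83.3% had a DPI control at least 2-fold above the water control, against 4.78% of all tested. The falls and this share both use the DPI control libraries. With water, WAK3 averaged 22.4 in the control and rose by 1.94, and EXT3 averaged 29.0 and rose by 0.81. Of 6 lipid transfer proteins 4 fell with water and none rose. SAG13, a senescence-associated dehydrogenase, had 14.2, 10.8 and 10.1 after high light and 281, 277 and 339.9 in the DPI control (log2 change −4.57, SE 0.22, adjusted p 1.79e-20). UGT76B1, a glucosyltransferase that inactivates salicylic acid and related signals, had 17.1, 20.5 and 13.1 after high light and 244, 290.1 and 287 in the control (log2 change −3.96, SE 0.26, adjusted p 3.2e-16). WAK3, a wall-associated kinase, had 11.4, 9.69 and 12.1 after high light and 174, 168 and 207 in the control (log2 change −3.93, SE 0.20, adjusted p 1.97e-19). All 3 lay apart between the groups, which their choice by size of fall made likely. Over all tested transcripts 20.2% lay below the control without overlap. EXT3, a cell wall extensin, had 9.96, 3.23 and 4.04 after high light and 113, 131 and 107 in the control (log2 change −4.26, SE 0.28, adjusted p 6.34e-16). Lipid transfer proteins fell as well, 5 of 6 with a median of −1.74. LTP3 had 9.96, 19.4 and 19.2 after high light and 861, 518 and 526 in the control (log2 change −5.22, SE 0.31, adjusted p 1.71e-17), and LTP4 had no read after high light and 151, 74 and 70.4 in the control, at least 28-fold lower. LTP3 and LTP4 are close paralogs, and their reads may be shared.

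The W-box (TTGACC or TTGACT, both strands) was in 27.8% of all promoter windows and of those of tested genes. Among transcripts that fell by at least 2 on the log2 scale the share was 71 of 156 (45.5%), and among falls of 1 to 2 it was 33.2%. Rises had a share of 34.5% from 1 to 2, 23% from 2 to 4, and 20.3% at 4 or more (13 of 64). The dehydration element (ACCGAC or GCCGAC) was in 7.94% of tested promoters, and in 59 of 388 (15.2%) of the transcripts that rose by 1 to 2. Its share was 11.5% for rises of 2 to 4, 7.81% for rises of 4 or more and 5.77% for falls of 2 or more. As for the heat shock element, these shares describe bins of the light response and carry no test.

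A further pair of large falls, chosen by size, was in lipase transcripts. LTL1, a GDSL-type lipase, had 0, 4.31 and 4.04 after high light and 79.3, 102 and 95.9 in the DPI control (log2 change −4.96, SE 0.38, adjusted p 4.39e-14). AT5G45670, of the same enzyme family, had 11.4, 14 and 6.06 after high light and 167, 143 and 160.2 in the control (log2 change −3.84, SE 0.27, adjusted p 2.44e-15). With water both also fell, at −6.01 (adjusted p 1.19e-16) for LTL1 and −6.20 (adjusted p 4.68e-22) for AT5G45670. Of 8 expansins, which loosen cell walls, 5 fell and 1 rose (median −0.48). EXPA1 had 1826, 2046 and 1918 after high light and 3839.6, 3859 and 3791 in the control (log2 change −0.99, SE 0.04, adjusted p 7.12e-24), and changed by −0.88 (adjusted p 8.26e-21) in the DPI systemic leaf.

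Transcripts of enzymes that make or remove reactive oxygen species moved in both directions. Of 10 RBOH genes, the NADPH oxidases that DPI inhibits, only 2 passed the filter on low counts. RBOHD had 2373, 2518 and 2594 after high light and 1301, 1428 and 1397 in the DPI control, a rise of 0.86 (SE 0.04, adjusted p 4.64e-20). Of 11 ascorbate peroxidases and catalases 3 rose and 4 fell (median −0.03), against 1 higher and 7 lower under quantile normalization. APX2, the light- and heat-inducible cytosolic enzyme, had 8.54, 11.8 and 7.07 after high light and 0, 0 and 1.02 in the control, a ratio of 26.1 (95% interval 4.25 to 1072) at a handful of reads. SAPX, the stromal enzyme, fell by 0.54. Of 8 superoxide dismutases 1 rose and 1 fell, against none higher and 3 lower under quantile normalization. Over all tested transcripts 17.9% rose and 15.9% fell. The call of MSD1 (0.13) was lost with DESeq2 and with edgeR, and that of CSD1 (−0.15) without DPI control local replicate 1, among other alternatives. FSD1, the iron enzyme of chloroplasts, had 381, 293 and 313 after high light and 363, 307 and 351 in the DPI control, and the groups overlapped (log2 change −0.05, SE 0.13, adjusted p 0.804). With water it averaged 88.2 ± 14 after high light and 999 ± 52.4 in the control (SD, n = 3 each), and the drop interaction was 3.44 (SE 0.19, adjusted p 9.37e-18).

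Photosynthesis transcripts changed by small amounts, and the direction of the lists turned with the scaling. Of 19 tested light-harvesting genes 3 rose and 1 fell (median 0.08), against none higher and 3 lower under quantile normalization. Of 15 Calvin cycle genes 9 rose and none fell (median 0.12), against 1 higher and 4 lower under quantile normalization. Light-harvesting rises numbered 6 without DPI control local replicate 1, 1 without replicate 2 or 3 of that group and 0 without DPI high light local replicate 3. Calvin cycle rises numbered 5 without DPI control local replicate 3 and 4 without DPI high light local replicate 3. Of 11 photoprotection genes 3 rose and 1 fell, against none higher and 4 lower under quantile normalization. ELIP1, a pigment-binding protein induced by light stress, had 44.1, 24.8 and 39.4 after high light and 36.3, 22.3 and 33.7 in the control, with overlapping groups and no change past the threshold (log2 change 0.21, SE 0.24, adjusted p 0.543). Of 16 chlorophyll synthesis genes 5 rose and 4 fell, against 1 higher and 11 lower under quantile normalization. With water 11 of these 16 fell and 1 rose, and 9 had a positive drop interaction.

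Clock transcripts split, with 5 of 20 higher and 6 lower (median −0.01). RVE1, a morning-phased MYB factor that links the clock to auxin, had 92.5, 124 and 99 after high light and 382, 387 and 333 in the DPI control (log2 change −1.80, SE 0.07, adjusted p 1.87e-22). The DPI systemic leaf averaged 119 ± 5.51 after high light and 380.0 ± 3.69 in the control (SD, n = 3 each), and the leaf interaction was −0.13 (SE 0.11, adjusted p 0.493). Its fall was larger than with water, at −1.59 (SE 0.11, adjusted p 2.58e-15) in the drop interaction. LHY, a core morning factor, had 902, 993 and 991 after high light and 1628, 1697 and 1572 in the control (log2 change −0.76, SE 0.04, adjusted p 1.01e-19), and averaged 939 ± 3.09 after high light and 1521 ± 19.8 in the control in the DPI systemic leaf. CCA1, the partner of LHY, changed by −0.18 (adjusted p 2.01e-05) and GI, an evening gene, by 0.46 (adjusted p 2.85e-09). With water, LHY averaged 5038 ± 178 after high light and 6883 ± 148 in the control, both above the DPI levels.

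Genes whose transcripts changed by at least 2-fold were shorter and had fewer exons, a description with no test. The median transcript length was 1456 bases for those that rose and 1488 bases for those that fell by at least 2-fold, against 1760 bases over all tested genes. The median number of exons was 2 in both sets and 5 over all tested genes. A single exon was present in 36.2% of the genes that rose, in 31.1% of those that fell, and in 15.2% of all tested genes. Their median level in the DPI control was also lower, at 93.8 for those that rose and 45.5 for those that fell. Over all tested genes it was 258.9, and the part of level in these differences was not tested.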

How the data were processed

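RNA was sequenced from pooled leaves in 24 libraries. Their titles gave 8 groups, each of 3 replicates. Per the submitters' processing notes, reads were checked with FastQC 0.11.7, aligned with STAR 2.4.0.1 to TAIR10 and normalized with DESeq2 1.20.0. Thus the authors deposited a normalized signal, the count of reads per gene divided by the library's size factor. Whether counting used the strand, and how reads with several locations were counted, is not given in the sources used here. Every value was a whole multiple of what 1 read is worth in its library, so that whole reads were recovered for 100.0% of values (tolerance 1e-06 in relative terms), and library totals of all 24 libraries ran from 13492454 to 26913744 reads. Floors of 3 reads and 95% exact intervals of ratios cover counting error only.

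The scale was log2(normalized count + 1), fitted with limma 3.58.1 (R 4.3.3), which understates changes of low genes. One fit of all 24 libraries had a mean per group, a variance trend on level and 16 residual degrees of freedom. Tests were two-sided, with Benjamini-Hochberg adjustment over 18314 genes in each comparison and a threshold of 0.05. The script was tested on simulated data. Genes named in the text were the 10 largest rises and falls past the threshold with a mean of at least 100 in the higher group and the same sign in all same-numbered differences, the 4 largest changes and the first member of each list, transcripts the study followed, and the 4 largest interactions in each direction. BIP2, CNX1, GSTF8, HSFA6A, PR5, SHD, TCH3, WRKY33 and WRKY40, and the genes named for a promoter element, were chosen after their values were seen. Members and lists were chosen with earlier results of these data known. Same-numbered libraries deviated with correlations of 0.090, 0.043 and 0.092, so that the numbers were not taken to pair the samples. Symbols and promoters came from RefSeq (TAIR10.1), in which 32548 of 32833 identifiers were found. Alternatives were other pseudocounts, filters and scalings, only the libraries of a contrast, a replicate block, edgeR 4.0.16 and DESeq2 1.42.0 on whole reads, and the omission of each library.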

Additional observations from a re-analysis of the deposited data

Results flagged for a closer look

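The light response of the local leaf differed with the drop for 3642 transcripts and with the leaf for 2411 transcripts, by the interaction terms of the limma fit. Among the named transcripts 30 past the threshold in both responses and in the interaction changed in opposite directions under DPI and under water. Of all 18314 tested transcripts, 469 fell with DPI and rose with water with an interaction past the threshold, and 137 did the reverse. The named transcripts were chosen partly by the size of their changes and interactions, so that their split is not that of all transcripts. The interaction is the log2 change with DPI minus that with water, and it uses the DPI local libraries of the report's comparison.

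Of these 30, 4 were higher after high light with DPI and lower with water. The interaction was 3.56 for DDF1, 3.91 for ddf2, 4.15 for AT5G52020 and 0.83 for HAT1. The other 26 were lower after high light with DPI and higher with water. Among defence and cell wall transcripts it was −8.70 for PR1, −9.20 for PAD3, −6.06 for SAG13, −6.42 for UGT76B1, −5.87 for WAK3 and −5.07 for EXT3. It was −8.64 for FMO1, −6.06 for ALD1, −5.11 for BGL2, −6.94 for CYP71A13, −5.41 for WRKY38, −3.44 for GSTF6, −3.21 for GSTF7 and −7.47 for GSTU4. Of genes of the endoplasmic reticulum, BIP3 had −4.13, BIP1 had −1.05 and PDIL1-1 had −1.26. It was −4.14 for NAC042, −2.02 for NAC019, −3.27 for AT3G47480, −0.98 for LOX2, −0.39 for APX1 and −0.28 for SEP2, of which NAC019, APX1 and SEP2 lost the call of their DPI response in at least 1 alternative. The values for PAD3 and FMO1 rest on the added 1, since their DPI high light libraries were at 0. That for ddf2 is uncertain too, since its water libraries had 0 to 1.04 after high light. ARD3, an enzyme of methionine salvage, had 34.2, 35.5 and 47.5 normalized counts after high light and 443, 450.3 and 460.3 in the DPI control, and an interaction of −6.69. AT3G28510, annotated as an ATPase, had 21.4, 42 and 33.3 after high light and 698, 775 and 807 in the control, and an interaction of −6.13. AT3G13610, annotated as a dioxygenase, had 12.8, 7.54 and 6.06 after high light and 109, 125 and 128 in the control, and an interaction of −6.96.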

How the results depend on the processing

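All 180 counts of transcripts called in the comparisons under the alternatives stayed within 1.5 times their value. With 1 library left out, the light response called 5376 to 5665 transcripts, the drop interaction 3192 to 3461 and the leaf interaction 2068 to 2314. DESeq2 called 5400, 3174 and 2091, and edgeR 6006, 3565 and 2357. Quantile normalization moved the split of the light response to 38.3% higher, against 52.9%, and that of the leaf interaction to 39.7% more positive, against 54.1%. The replicate block called 6517, 3967 and 2687; all 3 numbers correlated best with their own number, a hint from the data only, and the labels do not pair the samples.

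Of 203 named transcripts tested, 192 passed and 161 passed under every alternative, while 31 lost the threshold in at least 1, and 107 of 1376 list counts moved by more than 1.5 times. Under quantile normalization the change turned to −0.0429 for POR C, −0.0574 for Lhca6, −0.0208 for NPQ4, −0.0648 for Lhca5, −0.0435 for RBCS1A, −0.0562 for CP12-2, −0.0879 for PIP1;4, −0.0662 for SEP1, −0.0409 for RBCS1B and −0.00576 for AT5G46270, and the cause was not tested. With 1 library left out, CAB1 ranged over −0.0395 to 0.0347 and was positive without DPI control local replicate 1 and without DPI high light local replicate 2. FSD1 ranged over −0.164 to 0.0259 and was positive without that high light library. Transcripts at 0 in a group have only a bound set by depth, at 3 reads per library.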

Other observations

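Ethylene synthesis was represented by 5 tested genes of 7, of which 2 rose and 1 fell. ACS6, a stress-induced ACC synthase, had 5252, 5649 and 5803 normalized counts after high light and 2104, 2234 and 2309 in the DPI control, a log2 change of 1.33 (SE 0.05, adjusted p 7.59e-25). The groups did not overlap, and the rise was smaller than with water, with a drop interaction of −0.96 (adjusted p 7.62e-15). EFE, an ACC oxidase, had 2995, 2648 and 2847 after high light and 3957, 3635 and 3553 in the control (log2 change −0.39, SE 0.05, adjusted p 6.36e-08). Of 5 tested dark and sugar starvation markers 3 fell and none rose (median −0.34), with ASN1, an asparagine synthetase, at 1973, 1869 and 1948 after high light and 2766, 2721 and 2721 in the control (log2 change −0.50, SE 0.05, adjusted p 1.22e-11). Of 10 oxylipin-responsive and mitochondrial stress genes 1 rose and 4 fell. CYP81D8, a cytochrome P450, had 111, 84 and 78.8 after high light and 221, 215 and 236 in the control (log2 change −1.30, SE 0.14, adjusted p 2.11e-10), while OPR1, a reductase of oxylipins, had 2243, 1967 and 2056 after high light and 1244, 1126 and 1175 in the control (log2 change 0.82, SE 0.05, adjusted p 3.91e-17).

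Of the 10 transcripts the study followed, 5 rose and 1 fell in DPI local leaves. The study chose this list, which is therefore not independent evidence. BME3 (GATA8), a GATA zinc finger factor, had 4809.6, 4626 and 4674 after high light and 1467, 1486 and 1592 in the control (log2 change 1.63, SE 0.05, adjusted p 6.57e-28). WRKY53, a senescence and defence factor, had 317, 362 and 323 after high light and 279.8, 246 and 278 in the control (log2 change 0.32, SE 0.09, adjusted p 0.00731), a call lost without DPI control local replicate 2 (adjusted p 0.0601) or DPI high light local replicate 2 (adjusted p 0.0572), and averaged 316 after high light and 98 in the control with water. Of light signalling and sigma factor genes 4 of 14 rose and 5 fell. Of tested PIF and shade factors 4 of 10 rose and 4 fell, of Aux/IAA genes 2 of 8 rose and 3 fell, of PIP aquaporins 4 of 13 rose and 2 fell (1 and 8 under quantile normalization), and of flavonoid genes 2 of 5 fell. Transcripts of the mitochondrial genome rose in 11 of 27 tested genes (median 0.67), against 17.9% of all tested transcripts, and 1 of 81 tested plastid genome transcripts fell. With water 22 of the 27 mitochondrial transcripts rose (median 1.18), and 5 of the 81 plastid transcripts rose. Organelle genes held 0.066% to 0.197% of the reads of these libraries.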
